A study of Arabidopsis thaliana with 6 samples.

Results

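The data describe 45 genes of starch, sucrose, trehalose phosphate and raffinose metabolism in the shoots of the quadruple mutant camta1/2/3/sid2 and of wild-type Arabidopsis thaliana, both in the Col-0 background. The genes were taken by locus identifier from a list sorted by metabolic step, and all 45 were found among the 33557 loci of the deposited table. The list holds 13 genes of starch synthesis, 17 of starch degradation, 5 of sucrose metabolism, 3 of sucrose export, 4 trehalose phosphate synthase-like genes and 3 galactinol synthases. Per the labels, mutant and wild-type plants stood on soil at 22 °C with a photoperiod of 12 h and 100 to 120 µmol of light per square metre and second. The whole aerial part was taken 21 days after germination at zeitgeber time (ZT) 12, which is dusk. The mutant carries lesions in CAMTA1, CAMTA2 and CAMTA3, calmodulin-binding transcription factors, together with sid2, a lesion in the salicylic acid enzyme isochorismate synthase 1. The labels name no alleles and no cold treatment, and neither a sid2 single mutant nor a camta mutant with intact SID2 was analysed here. Messenger RNA was sequenced in 3 libraries per genotype, but the table gives 1 combined value per genotype and locus, in FPKM (fragments per unit of transcript length and of library size). No difference below therefore has a replicate check, and no p-value or standard deviation is given.

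Leaves of this species store part of the carbon fixed by day as starch in the chloroplast and break it down at night. Synthesis runs from fructose 6-phosphate through glucose 6-phosphate and glucose 1-phosphate to ADP-glucose, whose glucose is added to glucan chains by starch synthases and arranged by branching and debranching enzymes. Degradation opens the granule surface by phosphorylation, releases maltose through beta-amylases, and passes maltose and glucose to the cytosol, where sucrose is made. Sucrose leaves the leaf through SWEET exporters and a proton-coupled transporter of the phloem. Trehalose 6-phosphate signals sucrose status, and galactinol is the galactosyl donor for raffinose, a sugar known to accumulate in cold and drought.

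Each difference is log2(FPKM + 1) of the mutant minus that of the wild type, called the log2 ratio. Thresholds of 1.2-fold, 1.5-fold and 2-fold are set on this scale throughout, and the fold given for a single gene is the plain ratio of FPKM, which is larger for genes of low level. Of the table's loci, 18547 reached 1 FPKM in at least 1 genotype and were analysed, with a median log2 ratio of -0.06, a 5th percentile of -0.38 and a 95th percentile of 0.33. Summed FPKM was 891178 in the mutant and 908640 in the wild type. The 4 targeted genes had log2 ratios of -1.77 for CAMTA1, -0.49 for CAMTA2, -1.57 for CAMTA3 and -0.23 for ICS1, the gene named by sid2. Leaf markers were abundant in both genotypes: Rubisco activase RCA had 3121 FPKM in the mutant and 1944 in the wild type, and the other markers were RBCS3B, CA1 and LHCB3, with log2 ratios of 0.34, 0.73 and -1.11. The root markers were lower in level, with PYK10 at 55.8 FPKM in the mutant and 51.6 in the wild type and CASP1 at 1.57 and 0.940 in the same order.

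Most of the 45 carbohydrate genes lay close together in the mutant and the wild type. All 45 passed the filter of 1 FPKM. Their median log2 ratio was -0.08, beside -0.06 for all analysed loci. Of the 45, 31 (68.9%) were below 0 and 14 above it, where 64.6% of all analysed loci were below 0. Within 1.2-fold on the log2(FPKM + 1) scale lay 33 of the 45 (73.3%), beside 81.6% of all analysed loci. A difference of at least 1.5-fold on that scale was seen in 1 gene that was higher in the mutant, SPS4F, and in 2 that were lower, GolS2 and GolS3. Those are 2.22% of the 45 genes on the higher side, where the background was 1.81% of analysed loci, and 4.44% on the lower side, where it was 1.99%. Shares that rest on 1 and 2 genes are near the background and say little about the list as a whole. At 2-fold, where 0.787% of analysed loci were higher and 0.69% lower, none of the 45 was counted.

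**Figure D1:**
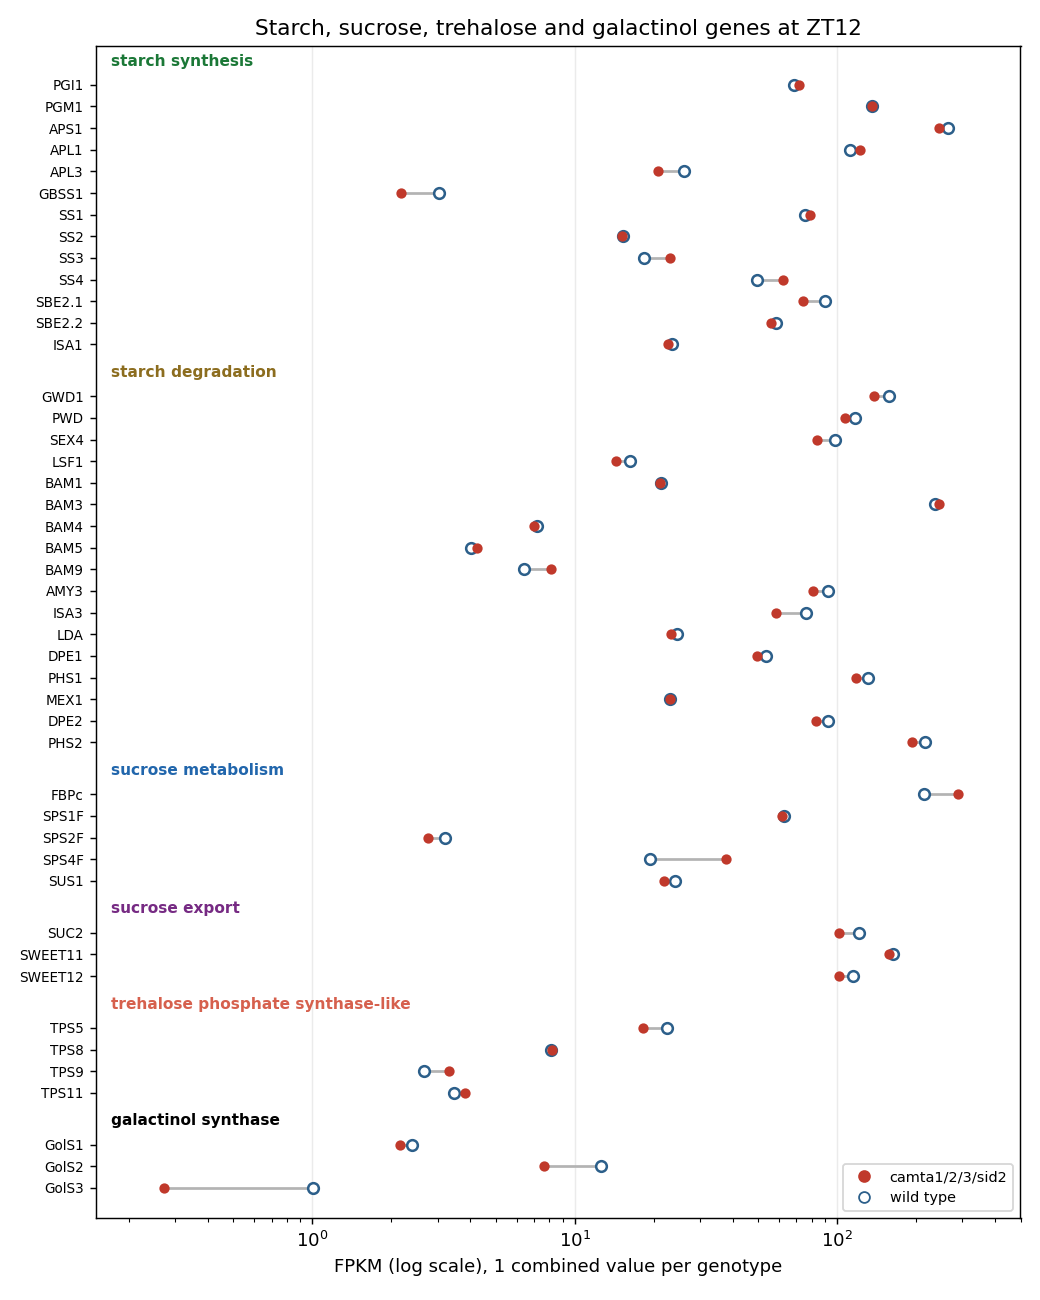
FPKM of each of the 45 genes on a log axis in camta1/2/3/sid2 (filled red circles) and the wild type (open blue circles), grouped by metabolic step; each point is the authors' combined value of a genotype. Most pairs of points nearly touch, while SPS4F, GolS2 and GolS3 have the longest connecting lines.

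Starch synthesis genes went both ways, and none reached 1.5-fold. Of 13 genes, 5 were above 0 and 8 (61.5%) below it, where 64.6% of all analysed loci were below 0. The median log2 ratio of the step was -0.02, beside -0.06 for all analysed loci. Within 1.2-fold lay 8 of the 13 (61.5%), a smaller share than the 81.6% of all analysed loci. Levels of the 13 genes ran from 2.17 to 245 FPKM in the mutant and from 3.03 to 265 FPKM in the wild type. The entry enzymes of the plastid were at nearly the same level in both genotypes. PGI1, plastidial phosphoglucose isomerase, had 71.7 FPKM in the mutant and 68.7 in the wild type. PGM1, plastidial phosphoglucomutase, without which leaves lack starch, had 136 FPKM in each genotype.

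ADP-glucose pyrophosphorylase, the regulated step of the pathway, is built of small catalytic and large regulatory subunits. The small subunit gene APS1 was the most abundant of the synthesis genes, at 245 FPKM in the mutant and 265 in the wild type. The main leaf large subunit APL1 had 122 FPKM in the mutant and 112 in the wild type. APL3, a large subunit known to respond to sugar supply, was lower, at 20.8 FPKM in the mutant and 26.0 in the wild type, a log2 ratio of -0.31. The large subunits thus went opposite ways at an equal total: with APL2 and APL4 added, which were chosen to complete the family, the 4 genes summed to 161 FPKM in each genotype. APL1 made up 75.5% of that sum in the mutant and 69.4% in the wild type, and APL3 made up 12.9% in the mutant and 16.1% in the wild type.

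Among the glucan-building enzymes the soluble starch synthases SS3 and SS4 were higher and the granule-bound enzyme lower. SS4, which acts in granule initiation, had 62.1 FPKM in the mutant and 49.4 in the wild type, a log2 ratio of 0.33. SS3, an elongating synthase, had 23.1 FPKM in the mutant and 18.4 in the wild type, a log2 ratio of 0.32. These are the highest ratios of the step, at percentiles 94.8 and 94.5 of all analysed loci. SS1, the most abundant soluble form, had 79.0 FPKM in the mutant and 75.4 in the wild type, and SS2 had 15.1 FPKM in the mutant and 15.3 in the wild type. GBSS1, which makes amylose on the granule and whose transcript is known to peak in the morning, was low at this hour, at 2.17 FPKM in the mutant and 3.03 in the wild type, a log2 ratio of -0.35. The enzymes that shape branches were level or lower. Branching enzyme SBE2.1 was 1.21-fold lower, at 74.2 FPKM in the mutant and 90.1 in the wild type, whereas its partner SBE2.2 had 55.9 in the mutant and 58.5 in the wild type. The debranching enzyme ISA1, which trims new glucans, had 22.7 FPKM in the mutant and 23.4 in the wild type.

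Starch degradation genes differed by small amounts, and their directions were near the background. Of 17 genes, 13 (76.5%) were below 0, beside 64.6% of all analysed loci, and the median log2 ratio was -0.12, beside -0.06. Set against that median of all loci, 11 of the 17 lay below and 6 above, and with ratios shifted to a median of 0 the step's median was -0.06. Within 1.2-fold lay 15 of the 17, all but BAM9 and ISA3, and none reached 1.5-fold. Summed over the genes of each step, degradation transcripts amounted to 1257 FPKM in the mutant and 1372 in the wild type, and synthesis transcripts to 929.5 FPKM in the mutant and 941 in the wild type. The ratio of degradation to synthesis was 1.35 in the mutant and 1.46 in the wild type. These sums add transcripts of unlike enzymes and weigh the abundant genes most. They leave out the 24 further starch genes below, which summed to 1151 FPKM in the mutant and 1140 in the wild type.

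GWD1, PWD and SEX4, which add or remove phosphate at the granule, were lower in the mutant by small amounts. GWD1, the dikinase that phosphorylates starch first, had 138 FPKM in the mutant and 158 in the wild type, a log2 ratio of -0.19. PWD, the dikinase that acts on glucans already phosphorylated, had 107 FPKM in the mutant and 117 in the wild type. SEX4, the phosphatase that removes these phosphates, had 83.6 FPKM in the mutant and 97.8 in the wild type. The 3 ratios lay between -0.22 and -0.12, where the median of all analysed loci was -0.06. LSF2, of the further starch genes below and picked after seeing the values, went the other way. It had 61.4 FPKM in the mutant and 56.6 in the wild type, a log2 ratio of 0.12. LSF1, a scaffold related to SEX4, had 14.4 FPKM in the mutant and 16.3 in the wild type. Its gene shares 343 of its 3489 bases with CA1 on the same strand, which had 5970 FPKM in the mutant and 3603 in the wild type, and no source used here says how reads of the shared stretch were divided.

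The beta-amylases, which release maltose, went both ways. BAM3, the main beta-amylase of leaf starch breakdown at night, had 244 FPKM in the mutant and 235 in the wild type, a log2 ratio of 0.05. BAM1, known for daytime and guard cell starch breakdown, had 21.2 FPKM in the mutant and 21.3 in the wild type. The low members were BAM5, an enzyme outside the plastid, at 4.22 FPKM in the mutant and 4.03 in the wild type, and the catalytically inactive BAM4, at 6.97 in the mutant and 7.15 in the wild type. BAM9, another inactive form, had the highest ratio of the degradation genes, 0.30, at 8.12 FPKM in the mutant and 6.39 in the wild type. The family was thus led by the same gene in both genotypes. Over all 9 beta-amylase genes of the genome BAM3 held 70.5% of the summed FPKM in the mutant and 71.2% in the wild type.

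The debranching, transglucosylating and phosphorolytic enzymes were lower by small amounts, and the maltose exporter was level. ISA3, which removes branches during degradation, had the lowest ratio of the step at -0.37, with 58.7 FPKM in the mutant and 76.2 in the wild type. That is percentile 5.14 of all analysed loci. The second debranching enzyme, LDA, had 23.2 FPKM in the mutant and 24.6 in the wild type. AMY3, the plastidial alpha-amylase, had 81.2 FPKM in the mutant and 92.0 in the wild type. Markers of guard cells, where AMY3 and BAM1 are also known to act, had a median log2 ratio of -0.04 over 6 of 6 listed genes, with summed FPKM of 129.5 in the mutant and 126 in the wild type and none at 0. Of these markers 5 were below 0, with a median close to the -0.06 of all analysed loci. DPE1, which rebuilds short maltooligosaccharides in the plastid, had 49.7 FPKM in the mutant and 53.8 in the wild type. MEX1, the maltose exporter of the chloroplast envelope, had 23.0 FPKM in each genotype. Of the genes in this paragraph, only MEX1 was equal in both genotypes to the digits given. In the cytosol, DPE2, which takes up maltose, had 83.1 FPKM in the mutant and 92.5 in the wild type. The phosphorylases stood at similar ratios: PHS1 of the plastid had 118 FPKM in the mutant and 131 in the wild type, and PHS2 of the cytosol had 193 in the mutant and 216 in the wild type.

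The rest of the starch pathway gave the same picture of small differences. Of 24 further starch genes fixed as a list, among them the sugar phosphate carriers of the envelope, 22 were analysed. Of these, 12 were above 0 and 10 (45.5%) below, where 64.6% of all analysed loci were below 0. Within 1.2-fold lay 17 (77.3%), beside 81.6% of all analysed loci. None reached 1.5-fold on the log2(FPKM + 1) scale, where 1.81% of all analysed loci were higher and 1.99% lower by that much. In a list of this size a count of 0 is near those shares. The median log2 ratio of the 22 was 0.02, beside -0.06 for all analysed loci. TPT, the triose phosphate exporter that feeds cytosolic sucrose synthesis, had 668 FPKM in the mutant and 643 in the wild type; it and the other genes of this paragraph were picked after their values were seen. The highest ratio of the list, 0.38, was that of the glucose 6-phosphate carrier GPT2, known to be induced by sugar, which had 1.55 FPKM in the mutant and 0.955 in the wild type, 1.62-fold higher as a plain ratio. The lowest, -0.48, was that of AT3G55760, at 13.8 FPKM in the mutant and 19.7 in the wild type. BAM6 was higher, at 17.8 FPKM in the mutant and 13.6 in the wild type, and the large subunit APL2 was lower, at 15.4 in the mutant and 19.5 in the wild type.

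**Figure D2:**
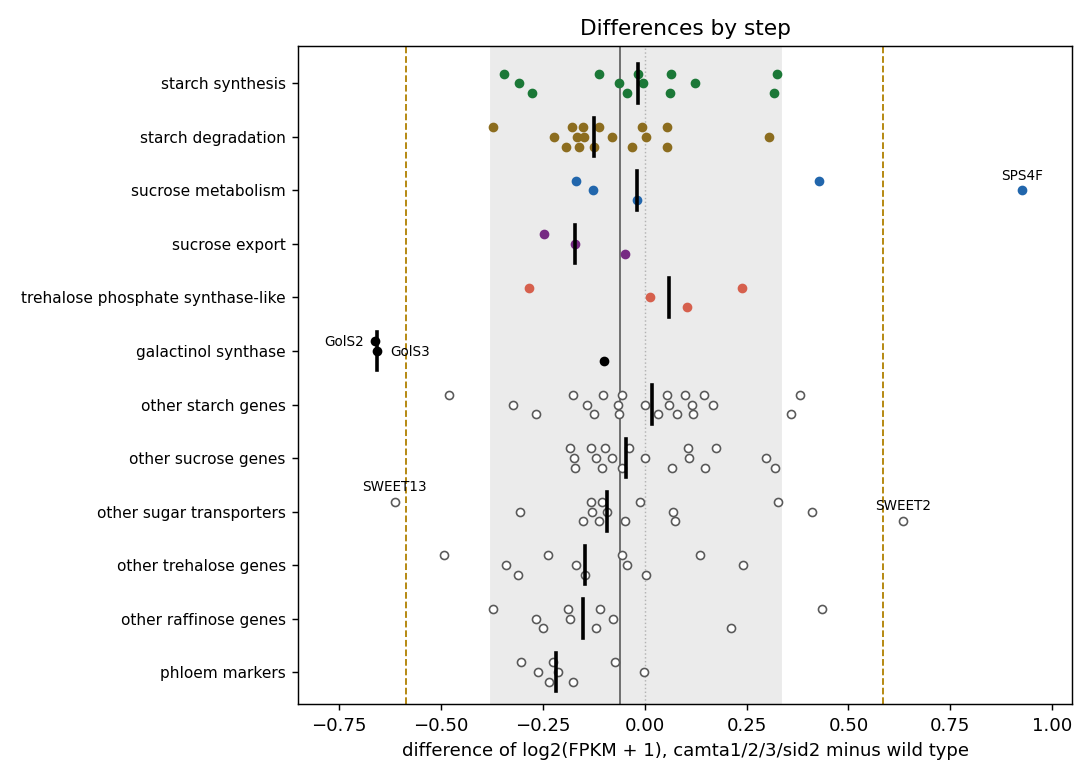
Difference of log2(FPKM + 1), camta1/2/3/sid2 minus wild type, for each analysed gene of the 6 steps (filled) and of 5 further pathway lists and the phloem markers (open); black bars are medians, the grey band spans the 5th to 95th percentile of all analysed loci around their median (grey line), and dashed lines mark 1.5-fold. Only SPS4F, GolS2, GolS3, SWEET2 and SWEET13 lie beyond the dashed lines among the genes drawn.

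Cytosolic sucrose synthesis held the highest ratio of the 45 genes. SPS4F (AT4G10120), a sucrose phosphate synthase, had 37.7 FPKM in the mutant and 19.4 in the wild type, which is 1.95-fold higher, with a log2 ratio of 0.93 at percentile 99.1 of all analysed loci. A gene on the other strand, AT4G10130, shares 167 of the 6181 bases of SPS4F. It was lower in level than SPS4F, at 6.43 FPKM in the mutant and 7.71 in the wild type, and went the other way. The main leaf isoform SPS1F was level, at 61.8 FPKM in the mutant and 62.6 in the wild type, and SPS2F was low, at 2.75 in the mutant and 3.21 in the wild type. The family's make-up therefore differed: SPS4F gave 36.5% of the summed FPKM of the 4 sucrose phosphate synthase genes in the mutant and 22.4% in the wild type, and SPS1F gave 59.9% in the mutant and 72.6% in the wild type. The sum was 103 FPKM in the mutant and 86.3 in the wild type.

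The cytosolic fructose 1,6-bisphosphatase, the first committed step from triose phosphate to sucrose, was higher as well. Its gene, FBPc here (AT1G43670), had 288 FPKM in the mutant and 214 in the wild type, a log2 ratio of 0.43 at percentile 96.8, and was the most abundant of the 45 genes in the mutant. SUS1, a sucrose synthase that cleaves sucrose and is known to respond to cold and low oxygen, had 21.9 FPKM in the mutant and 24.0 in the wild type. Of 23 further sucrose genes, which include sucrose phosphatases, invertases and the other sucrose synthases, 18 were analysed. Of these, 7 were above 0 and 11 (61.1%) below, near the 64.6% of all analysed loci below 0. None reached 1.5-fold, where 1.81% of all analysed loci were higher and 1.99% lower by that much, so a count of 0 is near those shares. The median log2 ratio of the 18 was -0.05, beside -0.06 for all analysed loci. The UDP-glucose pyrophosphorylase genes, picked after seeing the values, went opposite ways: UGP2 had 37.2 FPKM in the mutant and 29.6 in the wild type, and the more abundant UGP1 had 77.9 in the mutant and 87.8 in the wild type. Picked likewise was F2KP, which sets the level of the bisphosphatase inhibitor fructose 2,6-bisphosphate, at 58.7 in the mutant and 47.5 in the wild type.

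**Figure D3:**
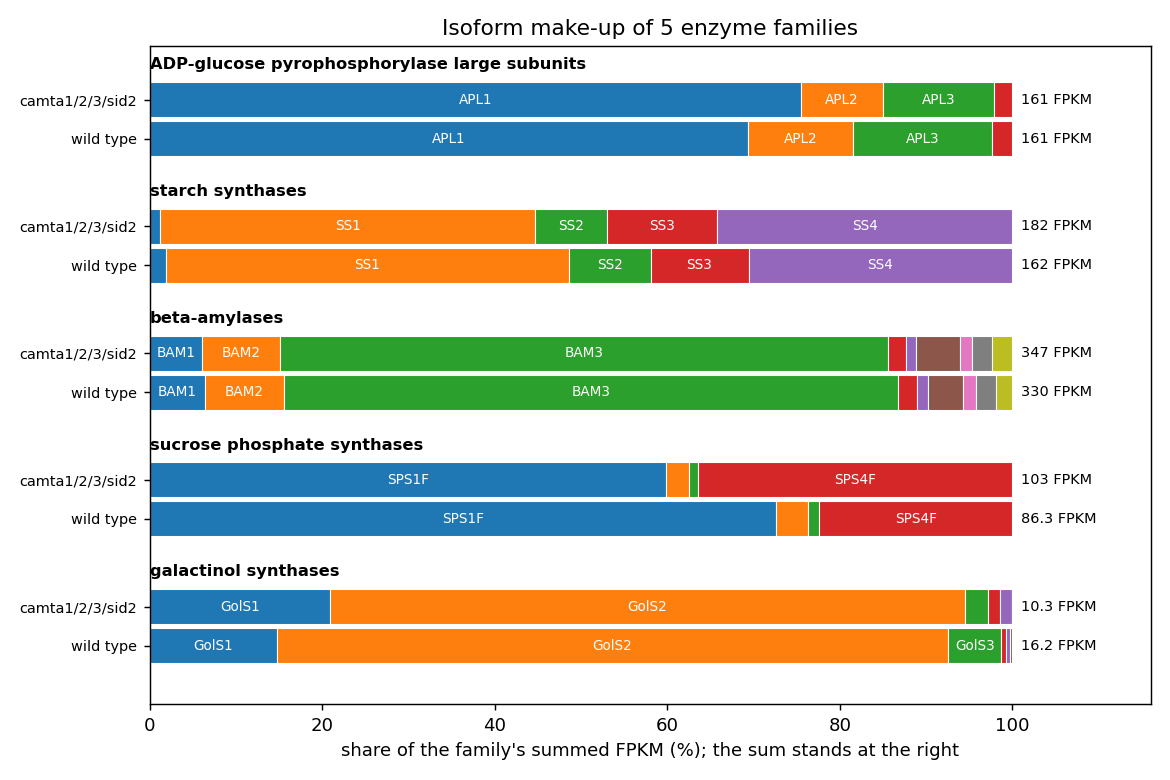
Share of each gene in the summed FPKM of 5 enzyme families (horizontal axis, percent), with camta1/2/3/sid2 above the wild type in each pair and the sum at the right. The largest shift in share is in the sucrose phosphate synthases, where SPS4F takes 36.5% in the mutant and 22.4% in the wild type.

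The genes of sucrose export were close between the genotypes. SUC2, the proton-coupled sucrose transporter of companion cells, had 102 FPKM in the mutant and 121 in the wild type, a log2 ratio of -0.25. SWEET12, a sucrose exporter of phloem parenchyma, had 102 FPKM in the mutant and 115 in the wild type, and its partner SWEET11 had 158 in the mutant and 163 in the wild type. All 3 were below 0 and within 1.2-fold, with a median of -0.17, where 64.6% of all analysed loci were below 0 and their median was -0.06. With ratios shifted to a median of 0, the step's median was -0.11 and SWEET11 turned to 0.01. Of the phloem cell markers, 8 of 8 listed genes were below 0, with a median log2 ratio of -0.22 and a range of -0.30 to -0.00, and summed to 242 FPKM in the mutant and 283 in the wild type, none of them at 0. Their part in the export values was not tested, and in RNA of whole shoots fewer cells of a type and less RNA per cell cannot be told apart. Among 18 further sugar transporters, 15 were analysed, 5 above 0 and 10 (66.7%) below. SWEET2, a tonoplast sugar carrier, was at least 1.5-fold higher, at 7.85 FPKM in the mutant and 4.70 in the wild type, a log2 ratio of 0.63. SWEET13, a sucrose exporter related to SWEET11 and SWEET12, was lower, at 2.15 FPKM in the mutant and 3.82 in the wild type, a log2 ratio of -0.61, which became -0.55 and so less than 1.5-fold when ratios were shifted to a median of 0.

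The trehalose phosphate synthase-like genes, whose products resemble the synthase but mostly lack its activity, went both ways by small amounts. TPS5 was lower, at 18.2 FPKM in the mutant and 22.4 in the wild type, a log2 ratio of -0.28. TPS9 and TPS11, forms known to fall when sugar is supplied, were at 3.33 and 3.80 FPKM in the mutant and at 2.67 and 3.46 in the wild type. TPS8, in the same class, had 8.22 FPKM in the mutant and 8.14 in the wild type. The median over the 4 genes was 0.06, and all but TPS5 differed by less than 1.2-fold once 1 FPKM was added; among those of at least 5 FPKM, TPS5 and TPS8, the median turned to -0.14. With TPS6, TPS7 and TPS10, added to complete the class, it summed to 73.1 FPKM in the mutant and 78.5 in the wild type. Of 15 further trehalose genes, 13 were in the table and 11 analysed, 3 above 0 and 8 (72.7%) below. Of all analysed loci 64.6% were below 0. The median of the 11 was -0.15, beside -0.06 for all analysed loci, and none reached 1.5-fold. The catalytic synthase gene TPS1 had 16.6 FPKM in the mutant and 18.5 in the wild type, and the phosphatase gene TPPE, which had the lowest ratio of this list at -0.49, had 15.9 in the mutant and 22.8 in the wild type; both were picked after seeing the values.

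Of the galactinol synthase genes, GolS2 and GolS3 were lower in the mutant and GolS1 was near its wild-type level. GolS2 (AT1G56600), the form known for drought and salt responses, had 7.61 FPKM in the mutant and 12.6 in the wild type, which is 1.66-fold lower, with a log2 ratio of -0.66 at percentile 1.54 of all analysed loci. GolS3 (AT1G09350), the form known for induction by cold and a target of the CBF activators, had 0.273 FPKM in the mutant and 1.01 in the wild type. That is 3.69-fold lower as a plain ratio, while the log2 ratio was also -0.66 because 1 is added to these low values. GolS3 passed the filter of 1 FPKM only through the wild type and only just, and since the median of these 3 genes is its own value, no weight is put on that median. GolS1 (AT2G47180), known for induction by heat and drought, had 2.16 FPKM in the mutant and 2.39 in the wild type, a log2 ratio of -0.10, and shares 43 of its 1681 bases with AT2G47170 on the other strand, which had 209 FPKM in the mutant and 220.0 in the wild type. Over all 7 galactinol synthase genes examined the sum was 10.3 FPKM in the mutant and 16.2 in the wild type, 1.57-fold lower, with GolS2 at 73.6% of it in the mutant and 77.8% in the wild type.

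Downstream and upstream of galactinol the differences were smaller. Of 15 further raffinose genes, 10 were analysed, 2 above 0 and 8 (80%) below, where 64.6% of all analysed loci were below 0. The median of the 10 was -0.15, beside -0.06 for all analysed loci, and none reached 1.5-fold. The examples that follow were picked after seeing the values. The raffinose synthase gene RS5 (AT5G40390) had 7.40 FPKM in the mutant and 8.54 in the wild type. MIPS1, which acts in the synthesis of inositol, the acceptor of galactose in galactinol, had 171 FPKM in the mutant and 180.4 in the wild type. SIP2, an enzyme of raffinose breakdown, went the other way, at 26.6 FPKM in the mutant and 19.4 in the wild type, a log2 ratio of 0.44. The other gene of the list above 0 was DIN10, at 0.21. The alpha-galactosidase genes AGAL1, AGAL2 and AGAL3 were below 0, at -0.37, -0.27 and -0.25, so breakdown genes did not share the direction of SIP2.

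The sequences before the 3 galactinol synthase genes are shown because 2 of these genes had the lowest ratios of the 45 and the third did not share them. They are the 300 bases before the annotated gene start in RefSeq's TAIR10.1 assembly, at chr2:19370479-19370778 on the minus strand for GolS1, chr1:21207237-21207536 on the plus strand for GolS2 and chr1:3019339-3019638 on the plus strand for GolS3. Capitals mark 6 motifs searched on both strands: CGCG, the core of the site bound by CAMTA factors, CCGAC, the C-repeat core bound by CBF factors, AAAATATCT, the evening element of the clock, CACGTG, the G-box, TATCCA, a sugar-response box, and GAANNTTC, a heat shock element. The CAMTA core, the G-box and the heat shock element read the same on both strands. A match in capitals on the other strand appears as its reverse complement, such as GTCGG for CCGAC.
GolS1: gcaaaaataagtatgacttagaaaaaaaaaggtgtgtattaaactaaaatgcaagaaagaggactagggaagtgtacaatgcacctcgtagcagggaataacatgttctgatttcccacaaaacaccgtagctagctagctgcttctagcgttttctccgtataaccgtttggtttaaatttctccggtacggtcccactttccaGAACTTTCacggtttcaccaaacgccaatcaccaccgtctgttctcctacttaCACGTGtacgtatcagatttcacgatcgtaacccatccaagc
GolS2: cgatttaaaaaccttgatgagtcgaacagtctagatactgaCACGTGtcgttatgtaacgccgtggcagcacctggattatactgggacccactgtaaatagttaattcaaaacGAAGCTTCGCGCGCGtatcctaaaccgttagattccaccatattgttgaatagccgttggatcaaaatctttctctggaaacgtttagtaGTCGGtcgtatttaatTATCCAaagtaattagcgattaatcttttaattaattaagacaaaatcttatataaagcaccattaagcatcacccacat
GolS3: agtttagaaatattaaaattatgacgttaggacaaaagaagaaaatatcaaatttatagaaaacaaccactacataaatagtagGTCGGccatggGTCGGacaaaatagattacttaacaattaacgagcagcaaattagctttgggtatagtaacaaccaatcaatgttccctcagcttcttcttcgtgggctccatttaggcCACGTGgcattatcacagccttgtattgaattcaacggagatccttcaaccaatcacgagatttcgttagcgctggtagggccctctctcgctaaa
GolS2 carries CGCG in 3 overlapping copies that start 179, 177 and 175 bases before the gene, the first of which overlaps a GAANNTTC match, with a CCGAC match at 96, a TATCCA match at 80 and a G-box at 259. GolS3 carries 2 CCGAC matches, at 216 and 205, and a G-box at 96, and holds no CGCG in this window. GolS1 carries a G-box at 42 and a GAANNTTC match at 95, with neither CGCG nor CCGAC in this window. A match of letters is a description of the window and not a measured binding site.

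For comparison, the same windows are given for ISA3, the lowest of the degradation genes, PHS1, which has the most G-boxes of the degradation genes, and SPS4F, the highest of the 45. They lie at chr4:5783609-5783908, chr3:11252507-11252806 and chr4:6313614-6313913, all on the plus strand.
ISA3: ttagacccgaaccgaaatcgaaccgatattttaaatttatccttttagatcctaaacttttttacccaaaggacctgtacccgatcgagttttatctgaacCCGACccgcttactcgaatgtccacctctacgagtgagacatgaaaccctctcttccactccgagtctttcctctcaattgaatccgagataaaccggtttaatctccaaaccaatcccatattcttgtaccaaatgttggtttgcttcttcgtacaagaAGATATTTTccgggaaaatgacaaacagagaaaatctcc
PHS1: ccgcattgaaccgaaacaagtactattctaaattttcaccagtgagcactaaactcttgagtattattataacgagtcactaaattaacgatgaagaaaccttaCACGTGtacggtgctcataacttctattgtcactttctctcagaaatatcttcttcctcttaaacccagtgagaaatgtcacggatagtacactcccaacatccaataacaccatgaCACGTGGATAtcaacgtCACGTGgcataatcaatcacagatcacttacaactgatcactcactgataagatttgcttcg
SPS4F: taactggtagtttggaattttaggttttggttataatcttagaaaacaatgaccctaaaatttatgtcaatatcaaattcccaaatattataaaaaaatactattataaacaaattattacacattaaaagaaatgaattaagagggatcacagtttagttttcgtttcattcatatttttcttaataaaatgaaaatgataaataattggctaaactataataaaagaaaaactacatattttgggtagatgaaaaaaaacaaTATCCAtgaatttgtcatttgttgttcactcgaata
ISA3 has a CCGAC match 199 bases before its start and an evening element at 39. PHS1 has G-boxes at 196, 79 and 62, and a TATCCA match that overlaps the second of them. SPS4F has a TATCCA match at 36 as its only match to the 6 motifs.

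Over all 45 genes the G-box was the motif whose share stood farthest from that of the genome. It lay in the window of 15 of 45 genes (33.3%), beside 7.09% of the windows of 27443 protein-coding genes of chromosomes 1 to 5. Of these 15, 5 belong to starch synthesis, 6 to starch degradation, 3 to the galactinol synthases and 1, SUC2, to export. Among them, the windows of SS3, SS4, LSF1 and PHS2 run into a neighbouring gene. The 27443 genes were taken whatever their level, and no share among expressed genes was computed. The evening element lay in 4 windows (8.89%), those of PGM1, PWD, ISA3 and SPS1F, beside 2.79% of all windows. The other motifs were nearer to the genome's share, with CGCG in 7 of 45 (15.6%) beside 11.8%, CCGAC in 6 (13.3%) beside 13.9%, TATCCA in 8 (17.8%) beside 16.2% and GAANNTTC in 7 (15.6%) beside 11.5%.

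Log2 ratios of the genes with and without each motif were as follows. The 7 genes with CGCG, PGM1, SS1, SBE2.2, AMY3, TPS8, TPS11 and GolS2, had a median log2 ratio of -0.00, and the 38 without it -0.11. The 6 with CCGAC, BAM5, AMY3, ISA3, TPS11, GolS2 and GolS3, had a median of -0.28 and a range from -0.66 to 0.10. The 39 without it had a median of -0.06. That gap rests on GolS2 and GolS3, both at -0.66, which had the lowest ratios of all the carbohydrate genes. GolS3 passed the filter only through the wild type. Of the others with CCGAC, ISA3 and AMY3 were at -0.37 and -0.18, and BAM5 and TPS11 at 0.05 and 0.10. No conclusion about CCGAC is drawn from this gap. The 4 with an evening element were all below 0, PGM1 and SPS1F only just, at -0.00 and -0.02. Below 0 were also 27 of the 41 without it and 64.6% of all analysed loci. The median was -0.07 with the element and -0.08 without it. The 8 with TATCCA had a median of 0.01 and the 37 without it -0.10, and the 7 with GAANNTTC had a median of -0.10 and the 38 without it -0.07. The 15 with a G-box had a median of -0.11 and the 30 without it -0.06. These medians describe few genes and have no test.

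**Figure D4:**
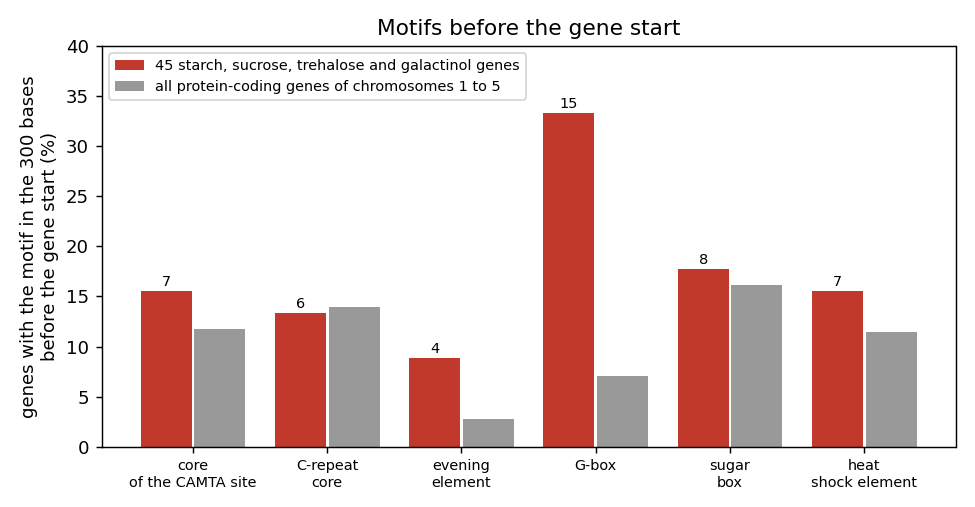
Share of genes (vertical axis, percent) whose 300 bases before the gene start hold each of 6 motifs, for the 45 carbohydrate genes (red, with the number of genes above the bar) and for all protein-coding genes of chromosomes 1 to 5 (grey). The G-box is in 33.3% of the 45 genes and in 7.09% of all.

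The genes beyond 1.5-fold were not the most abundant ones. The 45 genes had a median of 49.7 FPKM in the mutant and 49.4 in the wild type, beside 11.0 in the mutant and 11.6 in the wild type for all analysed loci. The 3 genes beyond 1.5-fold lay at 37.7, 7.61 and 0.273 FPKM in the mutant and at 19.4, 12.6 and 1.01 FPKM in the wild type, for SPS4F, GolS2 and GolS3 in this order. Among loci of at least 5 FPKM in at least 1 genotype, where GolS3 drops out, 1.49% were higher and 1.79% lower by 1.5-fold or more, and SPS4F and GolS2 were still beyond the threshold.

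**Figure D5:**
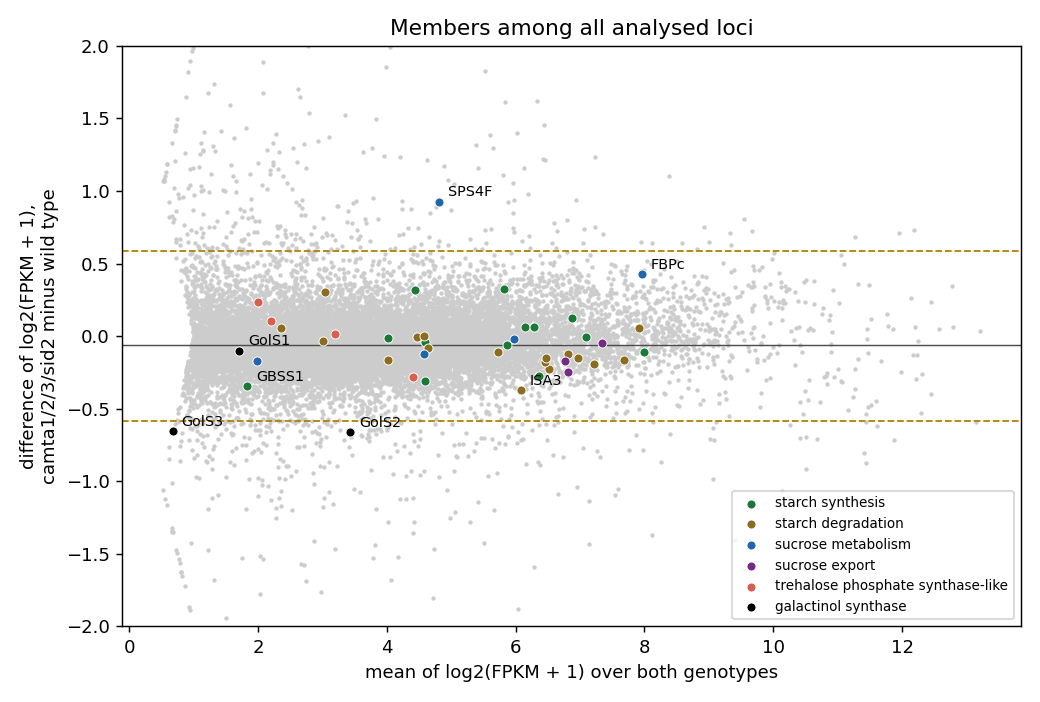
Difference of log2(FPKM + 1), camta1/2/3/sid2 minus wild type, against the mean of log2(FPKM + 1) over both genotypes for all analysed loci (grey points) and the 45 genes (coloured by step); dashed lines mark 1.5-fold, the solid line the median of all analysed loci, and 85 loci outside the vertical range are not drawn. SPS4F stands at 0.93, and GolS2 and GolS3 at -0.66.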

How the data were processed

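Shoot messenger RNA of 6 plant samples was sequenced, 3 per genotype. The authors deposited FPKM values, per the file headers, with 1 value per genotype and locus; the submitters' processing notes name TopHat 1.4.1, Cufflinks 2.1.1, Cuffdiff and the genome build TAIR10. How libraries were combined, strand use and depth are stated in no source used here. Of 1376 low loci (under 0.1 FPKM but not at 0 in each genotype), the fullest 0.02-wide bin of log2 ratios held 1.53%, so no whole-read steps were seen and depth is unknown.

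From these values the log2(FPKM + 1) difference, counts at 1.5-fold and 2-fold, step medians and isoform shares were computed for loci of at least 1 FPKM in at least 1 genotype, without a test. FPKM is scaled to library size, so a change in very abundant transcripts shifts all other values, and Cufflinks divides reads shared by overlapping or similar genes. The genes and lists were chosen with earlier results of these data known. The text names all 45 genes, the targeted genes, leaf and root markers, and genes of the further pathway, phloem and guard cell lists at 1.5-fold or beyond; other named genes complete an enzyme family or overlap one of the 45, or are said to be picked after seeing the values. Of the 33557 loci, 32813 (97.8%) matched RefSeq's TAIR10.1 annotation, all 45 genes among them. In that annotation 14 of the 45 overlap another gene, 2 of them on the same strand. Sequences and their coordinates come from TAIR10.1 alone. The procedure was tested on simulated data, made from the wild-type values by set fold changes without noise. That checks the arithmetic of the calls and says nothing about their error. Python 3.11.15, numpy 2.4.6, pandas 2.3.3 and matplotlib 3.10.9 were used.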

Additional observations from a re-analysis of the deposited data

How the results depend on the processing

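The alternatives were pseudocounts of 0.1 and 0.5, no filter, a filter of 5 FPKM, ratios shifted to a median of 0 and a 2-fold threshold; ratios with no pseudocount among loci above 0 in both genotypes were added after seeing the data. SPS4F, GolS2 and GolS3 stayed beyond 1.5-fold under each of them except the 2-fold threshold, which counted 0 higher and 0 lower genes, and the filter of 5 FPKM, which removed GolS3 and counted 1 lower gene. That filter also gave a median of 0.20 for sucrose metabolism, against -0.02 as reported, and -0.14 for the trehalose phosphate synthase-like genes, against 0.06, since it left fewer genes in each. The other step medians moved by less than 0.1. GolS3 depended most on the pseudocount, with log2 ratios of -1.57 at 0.1, -0.96 at 0.5 and -1.88 with none. Of 58 named genes, 6 moved by 0.1 or more at a pseudocount of 0.1, 4 at 0.5 and 8 with none; CASP1 then passed 1.5-fold at 0.1, at 0.68. No paired analysis was possible because the table gives 1 combined value per genotype, and for the same reason no replicate could be left out. Without depth or replicates, differences as small as those of the starch genes have no measured error.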

Other observations

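Genes of sugar signalling and sugar starvation went both ways. Of 13 listed genes 10 were in the table and analysed, 5 above 0 and 5 (50%) below, where 64.6% of all analysed loci were below 0. The median log2 ratio of the 10 was -0.01, beside -0.06 for all analysed loci. With 1 FPKM added, 8 of the 10 differed by less than 1.2-fold. DIN1 (AT4G35770, also SEN1), a gene induced in the dark and by sugar starvation, had 11.8 FPKM in the mutant and 5.85 in the wild type, a log2 ratio of 0.90. The remaining values of this paragraph were picked after they were seen. DIN6, an asparagine synthetase with a like response, had 2.39 FPKM in the mutant and 1.54 in the wild type, a log2 ratio of 0.42. DRM2 and BXL1 of the same list were above 0 too, at log2 ratios of 0.25 and 0.13. SEN5 went the other way, at 14.5 FPKM in the mutant and 17.1 in the wild type. Its log2 ratio of -0.22 was the lowest of the list. KIN10 and KIN11, the catalytic subunits of the energy-sensing kinase SnRK1, had 17.3 and 13.5 FPKM in the mutant and 19.6 and 14.2 in the wild type. HXK1, the hexokinase that senses glucose, had 34.0 FPKM in the mutant and 34.6 in the wild type.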
